A study of Mus musculus with 36 samples.

Results

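The Tcf/Lef transcription factors *Tcf7*, *Tcf7l1*, *Tcf7l2* and *Lef1* were followed through RNA-seq of cultured mouse nephron progenitor cells (NPCs). The 4 genes were chosen by name, as the rows of the deposited tables whose Ensembl identifiers carry these symbols, and they are 4 of 30125 genes listed in any of the 3 tables, of which 22977 are in all 3. All 4 members are present in every table and passed the filter on low values in each. The question is how the balance of the 4 factors changes with the dose of CHIR, with removal of β-catenin, and when guide RNAs are directed at the factors themselves.

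The 36 libraries come from primary NPCs of E16.5 mouse kidneys, obtained by magnetic depletion with antibodies to CD105, CD140, Ter119 and CD326, which mark endothelial, stromal, erythroid and epithelial cells, and cultured in nephron progenitor expansion medium (NPEM) with the GSK3 inhibitor CHIR99021 (CHIR) at 0 µM (no CHIR), 1.25 µM (low CHIR) or 5 µM (high CHIR). The wild-type experiment has 3 untransfected libraries with the genotype Wild Type at each dose. In the β-catenin experiment each group holds 2 libraries, in low and in high CHIR. Its Cas9-eGFP cells, which make Cas9 and GFP constitutively, received guides against *Ctnnb1* (Ctnnb1sgRNA) or against GFP (GFPsgRNA), and its B-catenin_c_c cells, homozygous for a conditional *Ctnnb1* allele, were Cre-pos or Cre-neg. In the Tcf/Lef experiment Cas9-eGFP cells received guides against all 4 factors together (TcfsgRNA) or against GFP, with 3 libraries in each group except TcfsgRNA in low CHIR, where 2 are analysed here. All transfected cells, controls included, were also given mCherry mRNA by lipofection and sorted for mCherry, and the Cas9-eGFP controls share Cas9 with the knockouts. The removal period was a day for β-catenin and a day longer for the factors. Per the paper all cultures were seeded in low CHIR, and transfected cells stayed in it through the removal period. The doses then applied for a day before RNA was taken, so no and high CHIR are shifts from low CHIR. Dams were Swiss Webster or C57Bl/6, and the sex of the embryos was not distinguished. Nothing in the labels says that replicates came from separate animals or cultures, so p-values measure the spread between these libraries, which may be technical.

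Tcf/Lef factors bind DNA through an HMG box and recruit β-catenin, which accumulates when CHIR blocks GSK3, to Wnt target genes. Without β-catenin they can hold Groucho/Tle corepressors at the same sites. *Tcf7l1* is best known for keeping targets silent, whereas *Lef1*, itself a Wnt target, and full-length *Tcf7* are classed with the activators. *Tcf7l2* has been assigned both roles. In the kidney a low Wnt input accompanies renewal of NPCs and a strong one starts their conversion to nephron epithelium.

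The guides that the study directed at the factors are shown because they define the perturbation read out below. Each is a 20-base RNA printed 5′ to 3′, and the capitals mark the 12 bases next to the PAM (the seed).
Tcf7: agcuggggGACGCCAUGUGG
Tcf7l1: cuuaaaaaAAGCGCCAUCCU
Tcf7l2: uuagcggcCAAGAGGCAAGA
Lef1: cucccaggAAAGCAUCCAGA

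Positions are those of the GRCm38 build with the GENCODE vM21 annotation. *Tcf7* (ENSMUSG00000000782) lies on the minus strand at chr11:52252371-52283014, and its guide matched the coding part of exon 4 of 11 of the transcript with the longest coding sequence at chr11:52261584-52261603, on the antisense strand beside the PAM AGG. *Tcf7l1* (ENSMUSG00000055799) lies on the minus strand at chr6:72626378-72789254, and its guide matched exon 3 of 13 of its transcript, chosen in the same way, at chr6:72788307-72788326, also antisense, beside the PAM GGG. *Tcf7l2* (ENSMUSG00000024985) lies on the plus strand at chr19:55741820-55933654. Its guide lies at chr19:55743069-55743088 on the sense strand beside the PAM TGG, with 16 of its 20 bases in exon 3 of 14 and the others in the intron before it. *Lef1* (ENSMUSG00000027985) lies on the plus strand at chr3:131110471-131224356. The last 13 bases of its guide matched the start of exon 3 of 12 at chr3:131115413-131115425, beside the PAM CGG, and the other bases were not checked against the genome. The longest coding sequence of *Tcf7* in this annotation has 909 bases, and forms of *Tcf7* outside the annotation were not considered. The predicted cuts fall 13.2%, 17.9%, 14.9% and 23.9% of the way along the longest annotated coding sequence of *Tcf7*, *Tcf7l1*, *Tcf7l2* and *Lef1*. They lie in coding sequence of 2 of 2, 3 of 3, 9 of 12 and 4 of 4 protein-coding transcripts of the 4 genes in that order, so 3 annotated coding transcripts of *Tcf7l2* do not hold the cut in their coding part. An insertion or deletion there need not lower the number of reads on a gene, and the counts show neither editing nor protein. By immunostaining the paper reports that single guides removed most Tcf7l1, Tcf7l2 and Lef1 protein and a smaller part of Tcf7.

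The values are normalized counts, the reads of a gene divided by 1 size factor per library, and each table was normalized separately, so tests were made within a table. Depth ranged from 13089780 to 76071568 reads on genes per library (median 18990328). The fewest reads behind a member in any library were 33 for *Tcf7*, 142 for *Tcf7l1*, 861 for *Tcf7l2* and 22 for *Lef1*, so the low values of *Lef1* carry the largest counting error. No stretch of 50 bases in a transcript of one member occurs in another, but each gene overlaps 1 to 6 other annotated genes and the strand used in counting is not given in the sources used here. Summed counts of the 9 NPC markers ran from 4146 to 35184 and all 9 were detected in every group but 1: *Osr1* was at 0 in the 3 wild-type libraries in high CHIR. Replicate 3 of that group stood apart, with 1336 normalized counts of the endothelial receptor *Flt1* against 93.0 and 39.1 in its replicates. *Flt1* made up most of the highest sum of the 5 endothelial markers in this group, 1399, and *Tie1* was at 0 in the group. Replicate 3 also had 9479 counts of the Wnt feedback gene *Nkd1* against 344 and 267, and the extreme value of all 4 members in its group. The members' fold changes and the partner calls in high CHIR are therefore also given without that replicate. Members were compared by limma on log2(normalized count + 1), a scale that understates changes of low genes. P-values had Benjamini-Hochberg adjustment over all genes tested, with a call at an adjusted p under 0.05. Whether groups overlapped is given as a description and not as a test. Groups of so few libraries can also separate for unchanged genes, and the share of all genes that did was not counted.

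In wild-type NPCs the 4 factors moved in opposite directions with dose. From low to high CHIR *Lef1* and *Tcf7* rose and *Tcf7l1* fell, while *Tcf7l2* did not pass the test. These are 3 of 4 members called, 2 higher and 1 lower, where 10.6% of all 17411 genes tested were called in this comparison.

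*Tcf7l1*, the repressor-type factor, had 2584, 2294 and 2325 normalized counts without CHIR, 1403, 1557 and 1613 in low CHIR and 272, 198 and 174 in high CHIR. The 3 doses did not overlap, and the level stepped down with each dose. The step from low to high was a log2 fold change of -2.85 ± 0.17 (SE, adjusted p = 9.64e-06, limma), and -2.71 without replicate 3 in high CHIR (adjusted p = 6.65e-06). From low to no CHIR it was 0.66 ± 0.17 higher and missed the threshold (adjusted p = 0.0564).

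*Lef1*, the activator-type factor that marks induced NPCs, ran the other way. Its counts were 196, 48.3 and 65.9 without CHIR, 356, 483 and 252 in low CHIR and 3811, 4197 and 9125 in high CHIR. Again no dose overlapped another, and replicate 3 in high CHIR lay far above its replicates. Without that library the log2 fold change from low to high was 3.51 (adjusted p = 0.00146), against 3.90 ± 0.50 with it (adjusted p = 0.000882). In no CHIR *Lef1* was 2.02 ± 0.50 lower than in low CHIR on the log2 scale (adjusted p = 0.0474), the only member called in this comparison, in which 5.04% of genes were called. That call was lost in 5 of 6 fits that left out 1 library, without replicate 2 or 3 in no CHIR (adjusted p = 0.159 and 0.185) or replicate 1, 2 or 3 in low CHIR (0.128, 0.173 and 0.0889).

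*Tcf7*, also activator-type and known for short forms that lack the β-catenin binding end, had 152, 111 and 97.2 counts without CHIR, against 134, 161 and 144 in low CHIR. These groups overlapped, and the difference of -0.30 ± 0.32 did not pass the test (adjusted p = 0.630, 95% interval -1.02 to 0.41). In high CHIR *Tcf7* had 641, 687 and 1524 counts, all above the other doses. The log2 fold change from low to high was 2.58 ± 0.32 (adjusted p = 0.000733), and 2.18 without replicate 3 (adjusted p = 0.000327).

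*Tcf7l2*, which can act in either way, had 2405, 2056 and 2431 counts without CHIR, 1717, 1498 and 1950 in low CHIR and 1442, 1760 and 805 in high CHIR, where replicate 3 was the lowest of all 36 libraries. Low and high CHIR overlapped, with a log2 fold change of -0.43 (95% interval -0.99 to 0.12, adjusted p = 0.330). The level without CHIR lay above that in low CHIR in every library, by 0.42 ± 0.25, which did not pass the test (adjusted p = 0.355, 95% interval -0.14 to 0.98). Across the full span from no to high CHIR, which shares libraries with both comparisons above, *Tcf7l2* fell by 0.85 ± 0.25 (adjusted p = 0.0316). The call held without replicate 3 in high CHIR (-0.52, adjusted p = 0.0319) but not without replicate 1, 2 or 3 in no CHIR (adjusted p = 0.0784, 0.0544 and 0.103). Over that span all 4 members were called, 2 in each direction, where 24.6% of genes were, with *Tcf7* 2.88, *Lef1* 5.93 and *Tcf7l1* -3.50 on the log2 scale.

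**Figure D1:**
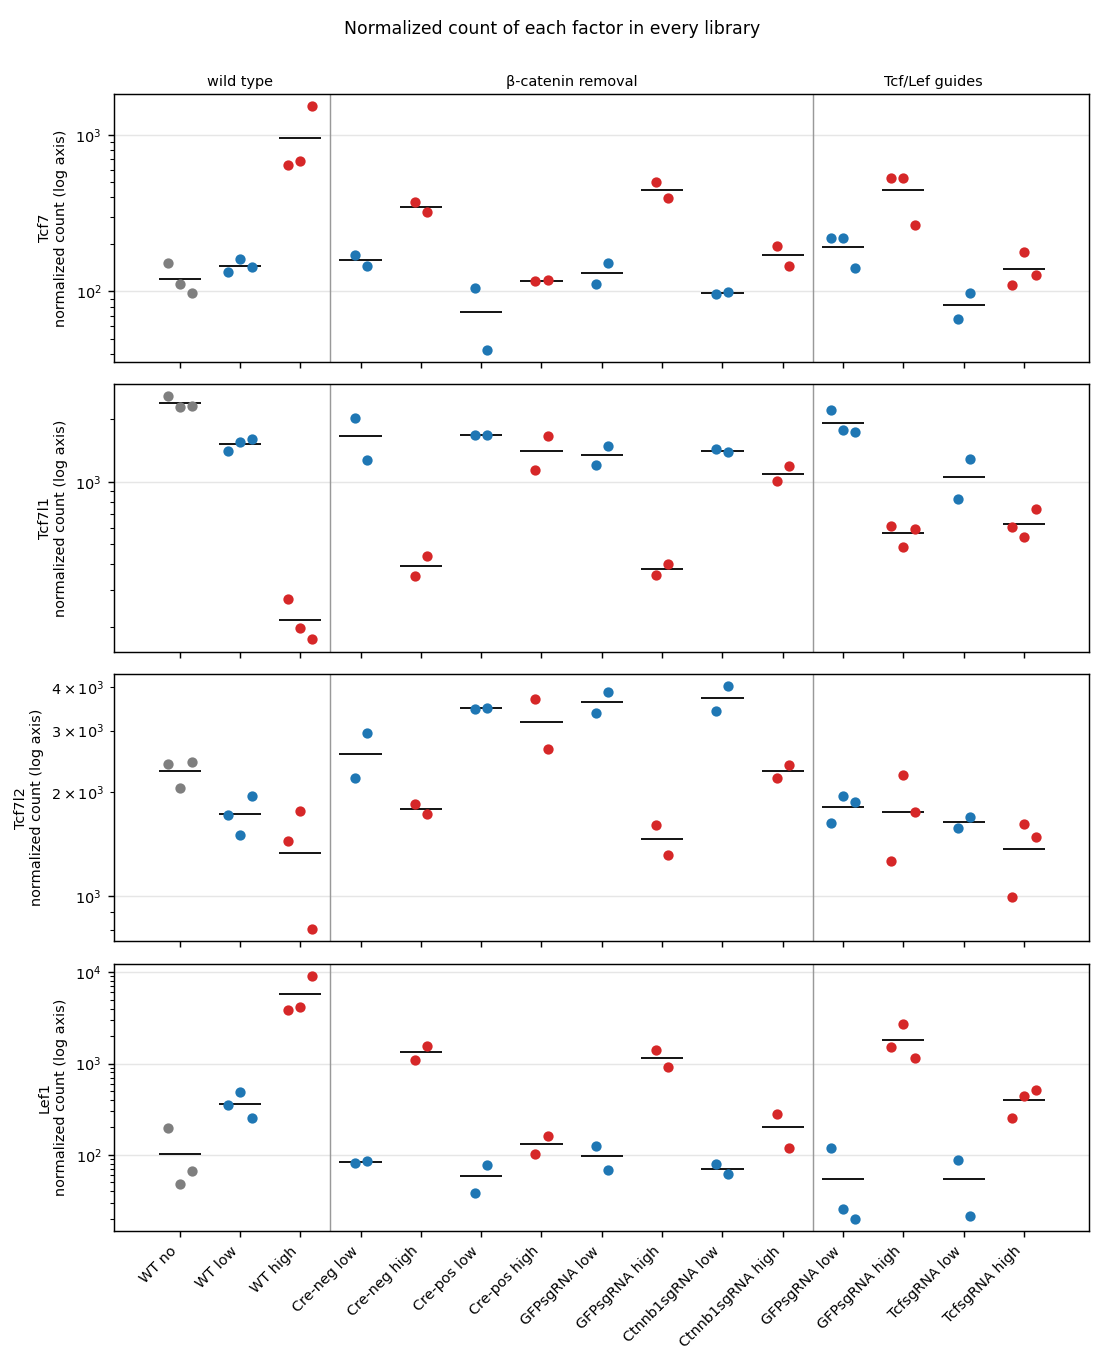
Normalized count (log axis) of each factor in every library, with a point per library, a line at the group mean, and gray, blue and red for no, low and high CHIR; vertical lines part the 3 separately normalized tables. *Lef1* and *Tcf7* sit high and *Tcf7l1* low in high CHIR in wild-type and control cells, whereas Cre-pos and Ctnnb1sgRNA cells in high CHIR stay near the low CHIR levels.

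NPC markers moved in the same libraries: their summed count was 30469 to 35184 with no CHIR, 16627 to 22475 in low and 4146 to 9052 in high CHIR. The sum hides unlike members. *Six2* had 2716 to 3072 counts in low and 60.5 to 79.6 in high CHIR, and *Osr1* 667 to 1387 in low and 0 in high CHIR. *Sall1*, which makes up most of the sum in high CHIR, ran from 4571 to 5538 in low and from 3197 to 6844 in high CHIR, and *Pax2* from 479 to 752 and from 630.0 to 1827. Summed ureteric markers, led by *Gata3* and *Krt18*, were 347 to 711 in low and 2360 to 5915 in high CHIR, while *Ret*, which defines ureteric tips, was at 2.79 to 4.48 counts in high CHIR. Epithelial cells had been depleted through CD326 at isolation. T cells also express *Lef1* and *Tcf7*. Of 7 listed blood and lymphocyte markers, *Cd3e*, *Cd3d*, *Cd3g* and *Cd8a* are not in the wild-type table. The T cell kinase gene *Lck* was 1.05 ± 0.26 higher in high than in low CHIR (adjusted p = 0.0301, limma). The pan-leukocyte gene *Ptprc* was at 0 to 8.41 counts and *Cd4* at 0 to 2.79. The part of these cells in the changes was not tested, and in bulk samples fewer cells of a type and less RNA per cell cannot be told apart.

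To set the factors beside each other, levels were divided by the merged exon length of each gene and each factor was expressed as a share of the summed level per kb. With no CHIR, *Tcf7l1* made up 65.8% ± 1.46 (SD, n = 3) of the sum, *Tcf7l2* 28.1% ± 1.88, *Tcf7* 4.89% ± 0.83 and *Lef1* 1.22% ± 0.85. In low CHIR *Tcf7l1* still led with 56.9% ± 1.33 and *Lef1* held 6.11% ± 2.03. In high CHIR *Lef1* held 51.7% ± 6.52 and *Tcf7* 28.8% ± 3.74, while *Tcf7l1* was down to 5.08% ± 2.54 and *Tcf7l2* to 14.5% ± 8.11. In replicates 1, 2 and 3 of that group *Lef1* held 47.6%, 48.2% and 59.2% and *Tcf7l2* 18.0%, 20.3% and 5.23%, so replicate 3 widened the spread. *Lef1* and *Tcf7* together thus went from 14.3% ± 2.70 of the sum in low CHIR to 80.4% ± 10.2 in high CHIR, where the libraries had 74.4%, 74.6% and 92.2%. The log2 ratio of *Lef1* to *Tcf7l1* per kb was -5.97 ± 0.97 with no CHIR, -3.28 ± 0.51 in low and 3.48 ± 0.98 in high CHIR, and no library of one dose reached the range of another. The summed level itself was 931 ± 74.5, 682 ± 35.9 and 1219 ± 466 normalized counts per kb, the last from 911, 990.3 and 1755.

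Which factor leads depends on the length used. The merged exons of *Tcf7l2* and *Lef1* span 8775 and 8788 bases, but their longest single transcripts hold only 3715 and 3656. For *Tcf7* and *Tcf7l1* the merged exons span 2625 and 3924 bases and the longest transcripts hold 2471 and 3042. Over all 36 libraries *Tcf7l1* had the largest share in 19, *Tcf7l2* in 11, *Lef1* in 4 and *Tcf7* in 2 with merged exons. With the longest transcript the numbers were 9, 22, 5 and 0, and with the longest coding sequence 4, 24, 8 and 0. The differences between groups in the log2 ratio of *Lef1* to *Tcf7l1* are free of this choice, since a length adds the same constant in every library.

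**Figure D2:**
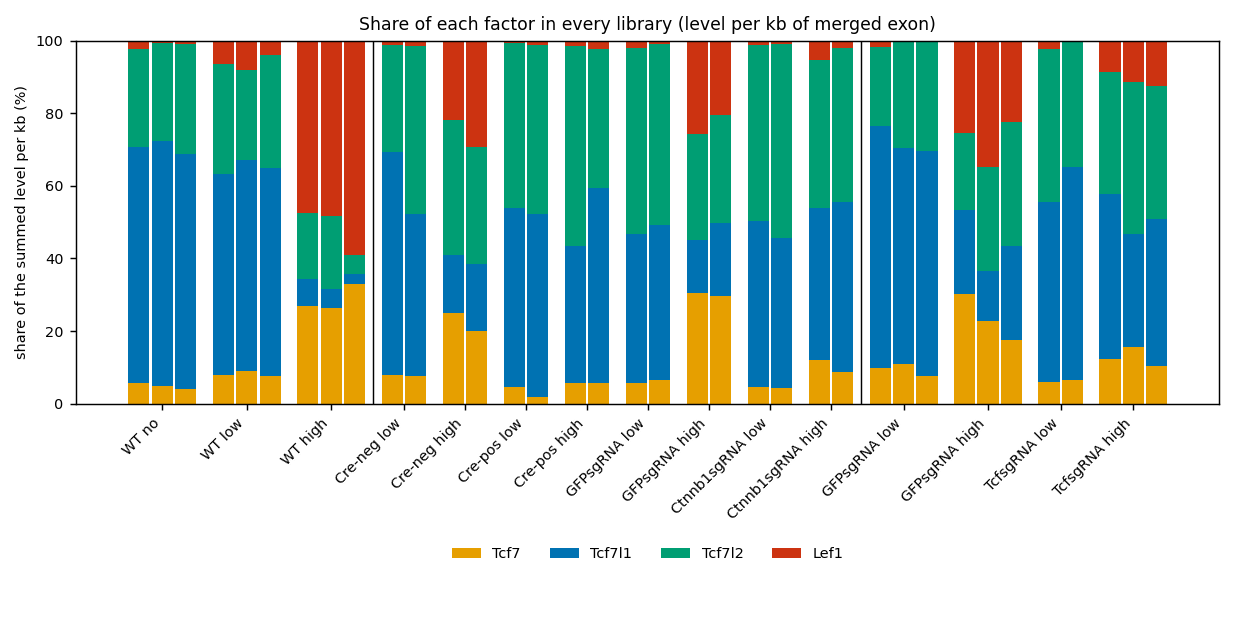
Share (%) of each factor in the summed level per kb of merged exon, 1 bar per library, grouped by condition. *Tcf7l1* and *Tcf7l2* fill over 80% of each bar in no and low CHIR and in the β-catenin-removed groups, while *Lef1* and *Tcf7* reach 39.9% to 92.2% in the high CHIR libraries of wild-type and control cells.

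The transfected controls gave the same comparison of high with low CHIR in separate libraries and tables. In Cre-neg cells *Lef1* had 82.2 and 85.2 counts in low CHIR and 1089.9 and 1568 in high CHIR, a log2 fold change of 3.95 ± 0.45 (adjusted p = 9.0e-05). *Tcf7l1* had 2030.0 and 1280.1 counts in low and 352 and 438 in high CHIR, which is -2.04 ± 0.24 (adjusted p = 9.5e-05). Neither gene's groups overlapped. *Tcf7* had 172 and 145 counts in low and 371 and 321 in high CHIR, without overlap, but the difference of 1.12 ± 0.36 missed the threshold (adjusted p = 0.0742). *Tcf7l2* had 2188 and 2959 in low and 1845 and 1723 in high CHIR (-0.51 ± 0.19, adjusted p = 0.134). So 2 of 4 members were called in Cre-neg cells, where 8.06% of 16780 genes were.

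In the GFPsgRNA cells of the β-catenin experiment all 4 members were called, 2 in each direction, where 7.51% of genes were. *Lef1* rose from 124 and 68.2 counts to 1407 and 913 (3.61 ± 0.45, adjusted p = 0.000235). *Tcf7* rose from 111 and 152 to 501 and 394 (1.77 ± 0.36, adjusted p = 0.00743), a call lost without replicate 1 in low CHIR (adjusted p = 0.0817) or in high CHIR (0.0773). *Tcf7l1* fell from 1208 and 1486 to 357 and 402 (-1.82 ± 0.24, adjusted p = 0.000284). *Tcf7l2* fell here too, from 3370.0 and 3879.8 to 1601 and 1319 (-1.31 ± 0.19, adjusted p = 0.000837). No group overlapped its partner for any of the 4 genes, but the share of all genes without overlap was not counted.

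In the GFPsgRNA cells of the Tcf/Lef experiment 3 of 4 members were called, 2 higher and 1 lower, where 15.6% of 15878 genes were. *Lef1* had 119.9, 25.7 and 19.9 counts in low CHIR and 1504, 2743 and 1144 in high CHIR (5.37 ± 0.65, adjusted p = 0.000198). *Tcf7l1* fell from 2225, 1774 and 1736 to 612, 486 and 591 (-1.76 ± 0.19, adjusted p = 8.7e-05). Both genes' groups lay far apart. *Tcf7* rose from 220.1, 220.1 and 141 to 534, 535 and 268 (1.16 ± 0.31, adjusted p = 0.0268), but the call was lost without replicate 2 or 3 in low CHIR (adjusted p = 0.0530 and 0.0638) or replicate 1 or 2 in high CHIR (0.0875 and 0.111). *Tcf7l2* had 1622, 1949 and 1873 counts in low and 1263, 2233 and 1750.0 in high CHIR, with overlap (-0.09 ± 0.22, adjusted p = 0.841). Summed stroma markers differed widely within these groups and by replicate number, 7392, 1901 and 275 in low CHIR. The *Lef1* value of replicate 1 was the highest in the same group, but in high CHIR that of replicate 2 was. The depletion through CD140 at isolation was aimed at stroma, and the part of stroma in the *Lef1* values was not tested.

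The per-kb log2 ratio of *Lef1* to *Tcf7l1* in the controls was -5.43 ± 0.51 in Cre-neg, -5.03 ± 0.82 in GFPsgRNA of the β-catenin experiment and -6.75 ± 1.20 in GFPsgRNA of the Tcf/Lef experiment at the low dose. At the high dose the values were 0.57 ± 0.15, 0.42 ± 0.56 and 0.42 ± 0.81. Their 7 high CHIR libraries, from -0.21 to 1.33, lay below the 3 wild-type ones, from 2.64 to 4.55. How close these controls come to equal levels depends on the length: the 7 libraries ran from 0.69 to 2.23 with the longest transcript and from 1.55 to 3.09 with the coding sequence. The tables differ in transfection, sort and normalization as well, which cannot be told apart, and no test crosses them.

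Markers moved with dose in the controls too. Summed NPC markers were 21419 to 25639 in low and 9827 to 11881 in high CHIR in Cre-neg cells, 20525 to 28040 and 10342 to 12598 in GFPsgRNA cells of the β-catenin experiment, and 21380.0 to 25646 and 10837 to 11915 in those of the Tcf/Lef experiment. Summed ureteric markers were 60.0 to 135 in low and 225 to 388 in high CHIR, 68.2 to 169 and 288 to 292, and 27.6 to 80.7 and 277 to 711 in the same order of cells. The part of these cells in the members' changes was not tested.

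β-Catenin removal was read against these controls in the same table, so each removal comparison shares its control libraries with a dose comparison above. Normalized counts of *Ctnnb1* itself were 1629.9 and 1270.1 in Ctnnb1sgRNA and 2632 and 2701 in GFPsgRNA cells in high CHIR (-0.89 ± 0.23, adjusted p = 0.0429) and 1652 and 1039.6 against 2521 and 3397 in low CHIR (-1.16, adjusted p = 0.252). The groups did not overlap at either dose. In Cre-pos cells *Ctnnb1* had 2254 and 2583 counts against 2423 and 2207 in Cre-neg cells in high CHIR (0.06, adjusted p = 0.917). In low CHIR it had 3085 and 2451 against 3880.1 and 3097, without overlap (-0.33 ± 0.23, adjusted p = 0.657). Counts over the whole gene include exons outside the part that Cre removes, so they are no check of the Cre labels. By immunostaining the paper reports less β-catenin protein both with Cre and with the *Ctnnb1* guides.

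In high CHIR all 4 factors differed between Cre-pos and Cre-neg cells, each opposite in sign to its own dose response in the controls. *Lef1* had 102 and 161 counts in Cre-pos against 1089.9 and 1568 in Cre-neg cells (-3.34 ± 0.45, adjusted p = 0.000384). *Tcf7l1* had 1134 and 1669.6 against 352 and 438 (1.81 ± 0.24, adjusted p = 0.000271). No group overlapped for either gene, and neither call was lost when 1 library was left out. *Tcf7* had 116 and 118 counts against 371 and 321 (-1.55 ± 0.36, adjusted p = 0.0141). *Tcf7l2* had 3696 and 2663 against 1845 and 1723 (0.81 ± 0.19, adjusted p = 0.0180). These last calls were less firm. That of *Tcf7* was lost without Cre-neg replicate 1 (adjusted p = 0.0992) or 2 (0.0524) or Cre-pos replicate 1 (0.0666) or 2 (0.0662), and that of *Tcf7l2* without Cre-neg replicate 1 (0.0674) or 2 (0.103) or Cre-pos replicate 1 (0.157). The 4 calls, 2 in each direction, compare with 8.65% of all genes.

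With Cas9, 3 of 4 members were called in high CHIR, 1 higher and 2 lower, where 5.09% of genes were. *Lef1* had 279.9 and 119.7 counts in Ctnnb1sgRNA against 1407 and 913 in GFPsgRNA cells (-2.62 ± 0.45, adjusted p = 0.00435), a call lost without Ctnnb1sgRNA replicate 2 (adjusted p = 0.0845) or GFPsgRNA replicate 1 (0.0524). *Tcf7l1* had 1004 and 1187 against 357 and 402 (1.53 ± 0.24, adjusted p = 0.00198), a call that held without each library. *Tcf7* had 194 and 146 against 501 and 394 (-1.39 ± 0.36, adjusted p = 0.0394), and was lost without Ctnnb1sgRNA replicate 1 (adjusted p = 0.0907) or 2 (0.305) or GFPsgRNA replicate 1 (0.220) or 2 (0.148). *Tcf7l2* had 2189.8 and 2396 against 1601 and 1319, without overlap, and missed the threshold (0.66 ± 0.19, adjusted p = 0.0731). Summed NPC markers moved with these values, 14112 to 15764 in Ctnnb1sgRNA and 15879 to 17199 in Cre-pos cells against 10342 to 12598 and 9827 to 11881 in their controls. So did stroma markers, with 11312 to 17858 and 6366 to 11743 against 3692 to 12527 and 3558 to 4816, and the part of either in the changes was not tested.

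In low CHIR no member was called with either way of removal. Of all genes 0.328% (55) were called for Cre and 0.0536% (9) for Cas9. *Lef1* had 38.3 and 78.5 counts in Cre-pos against 82.2 and 85.2 in Cre-neg cells (-0.60, 95% interval -1.58 to 0.38), and 78.6 and 61.5 in Ctnnb1sgRNA against 124 and 68.2 in GFPsgRNA cells (-0.40, interval -1.38 to 0.58). *Tcf7l1* differed by 0.06 (interval -0.45 to 0.57) and 0.08 (interval -0.43 to 0.58). The intervals of *Lef1* were wider than those of *Tcf7l1*. In Ctnnb1sgRNA cells *Tcf7* had 96.0 and 99.2 counts against 111 and 152, without overlap (-0.41, interval -1.17 to 0.36). *Tcf7l2* had 3426 and 4032 there against 3370.0 and 3879.8 (0.04, interval -0.38 to 0.46). *Tcf7* was lowest in Cre-pos cells in low CHIR, with 106 and 42.5 counts against 172 and 145 (-1.22 ± 0.36, unadjusted p = 0.00424, adjusted p = 0.204, limma), and passed the threshold without Cre-pos replicate 1 (-1.87, adjusted p = 0.0390). *Tcf7l2* had 3473 and 3481 counts against 2188 and 2959 there (0.45, unadjusted p = 0.0372, adjusted p = 0.425, limma).

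Within Cre-pos and Ctnnb1sgRNA cells no member was called between high and low CHIR. *Lef1* went from 38.3 and 78.5 to 102 and 161 in Cre-pos (1.21 ± 0.45, adjusted p close to 1) and from 78.6 and 61.5 to 279.9 and 119.7 in Ctnnb1sgRNA cells (1.38 ± 0.45, adjusted p = 0.302). The groups of *Lef1* did not overlap in either case, which is a description and not a test. *Tcf7l1* changed by -0.29 (95% interval -0.80 to 0.22) and -0.37 (interval -0.88 to 0.14), against -2.04 and -1.82 in the controls. *Tcf7* went from 106 and 42.5 to 116 and 118 in Cre-pos (0.79, interval 0.03 to 1.56, unadjusted p = 0.0433, limma) and from 96.0 and 99.2 to 194 and 146 in Ctnnb1sgRNA cells (0.78, interval 0.02 to 1.55, unadjusted p = 0.0459, limma). Neither pair overlapped, and neither passed the adjustment. *Tcf7l2* went from 3473 and 3481 to 3696 and 2663 in Cre-pos (-0.15, interval -0.57 to 0.27) and from 3426 and 4032 to 2189.8 and 2396 in Ctnnb1sgRNA cells, where the groups did not overlap (-0.70 ± 0.19, unadjusted p = 0.00320, adjusted p = 0.184, limma). In these comparisons 0.292% and 0.763% of genes were called. The difference between the dose responses of Cre-pos and Cre-neg cells was 1.75 ± 0.33 for *Tcf7l1* (adjusted p = 0.0222), the 1 member called where 0.995% of genes were. That call was lost without Cre-neg replicate 1 or Cre-pos replicate 1 or 2 in low CHIR (adjusted p = 0.0832, 0.0739 and 0.0784) and without Cre-neg replicate 1 or Cre-pos replicate 2 in high CHIR (0.0937 and 0.0856). For *Lef1* the difference was -2.74 ± 0.64 (adjusted p = 0.0712), and it passed without Cre-pos replicate 1 in low CHIR (-3.25, adjusted p = 0.0481). In the Cas9 cells the differences were 1.45 ± 0.33 for *Tcf7l1* (adjusted p = 0.101) and -2.22 ± 0.64 for *Lef1* (adjusted p = 0.286), and no member was called where 0.518% of genes were. The responses of *Tcf7* differed by -0.33 ± 0.50 with Cre (adjusted p = 0.912) and -0.98 ± 0.50 with Cas9 (0.770), and those of *Tcf7l2* by 0.36 ± 0.28 (0.794) and 0.62 ± 0.28 (0.696). With a replicate block the differences of *Lef1* with Cre and with Cas9 and of *Tcf7l1* with Cas9 were called, as given in the last section.

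In shares of the per-kb sum, Cre-pos cells in high CHIR kept a low CHIR makeup, with *Tcf7l1* at 45.7% ± 11.3 (SD, n = 2), *Tcf7l2* at 46.6% ± 11.8, *Tcf7* at 5.72% ± 0.08 and *Lef1* at 1.92% ± 0.57. Their Cre-neg controls had 17.1%, 34.7%, 22.5% and 25.6% in the same order. Ctnnb1sgRNA cells in high CHIR had *Tcf7l1* at 44.4% ± 3.59 and *Lef1* at 3.66% ± 2.19, against 17.4% and 23.1% in GFPsgRNA cells. The log2 ratio of *Lef1* to *Tcf7l1* was -4.59 ± 0.07 in Cre-pos and -3.74 ± 1.04 in Ctnnb1sgRNA cells. These are above the values of the same cells in low CHIR, -6.10 ± 0.74 and -5.51 ± 0.22, and far under those of the controls in high CHIR.

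**Figure D3:**
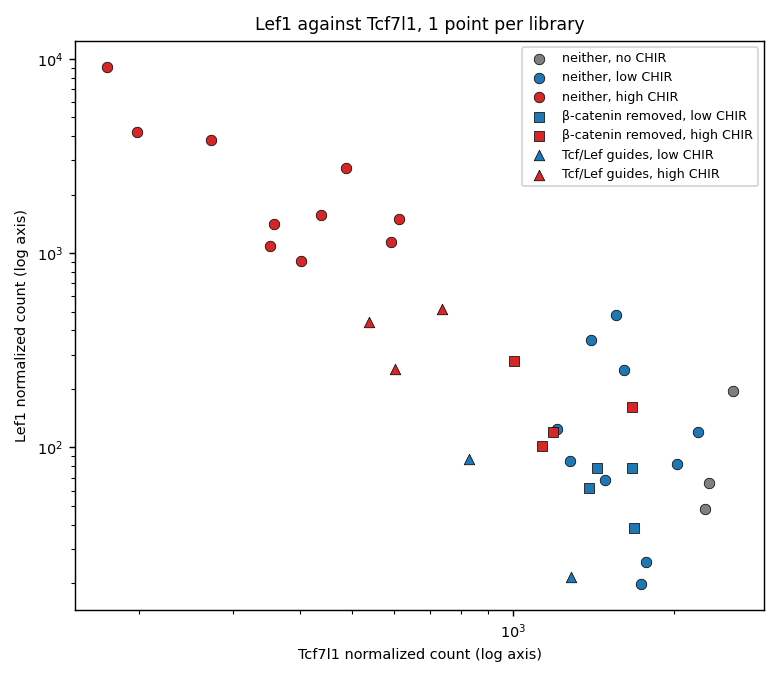
Normalized count of *Lef1* against that of *Tcf7l1*, both on log axes, 1 point per library; color gives the CHIR dose and shape gives neither perturbation (circles), β-catenin removal (squares) or Tcf/Lef guides (triangles). Wild-type and control libraries in high CHIR lie at the upper left, β-catenin-removed ones in high CHIR sit beside the low CHIR libraries at the lower right, and TcfsgRNA ones in high CHIR lie between.

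The guides against the 4 factors gave the third kind of comparison. The GFPsgRNA libraries are those of the dose comparison in the same table, so the comparisons share them. In low CHIR the 2 TcfsgRNA libraries had 66.2 and 97.7 counts of *Tcf7* against 220.1, 220.1 and 141 in GFPsgRNA cells, and 827 and 1286 of *Tcf7l1* against 2225, 1774 and 1736. Neither gene's groups overlapped. The log2 differences were -1.23 ± 0.35 and -0.88 ± 0.21, with unadjusted p of 0.00452 and 0.00145 that did not survive the adjustment (adjusted p = 0.904 and 0.820, limma), in a comparison in which 0.0063% of genes, a single one, were called. *Tcf7l2* had 1575 and 1695 counts against 1622, 1949 and 1873 (-0.15, 95% interval -0.67 to 0.38). *Lef1* had 87.1 and 21.5 against 119.9, 25.7 and 19.9 (0.13, interval -1.46 to 1.72). In both groups replicate 1 was highest for *Lef1*, and replicate 1 was also highest in summed stroma markers, 13177 against 777 in TcfsgRNA cells. In high CHIR *Lef1* was instead highest in replicate 3 of TcfsgRNA and in replicate 2 of GFPsgRNA cells.

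In high CHIR 1 of 4 members was called, where 2.56% of genes were. *Tcf7* had 110, 179.7 and 127 counts in TcfsgRNA against 534, 535 and 268 in GFPsgRNA cells, without overlap (-1.64 ± 0.31, adjusted p = 0.0175). The call was lost without GFPsgRNA replicate 1 (adjusted p = 0.0623) or 2 (0.0988) or TcfsgRNA replicate 1 (0.0834) or 3 (0.0658). *Lef1* had 255, 441 and 513 counts against 1504, 2743 and 1144, also without overlap. Its difference of -2.12 ± 0.65 missed the threshold (adjusted p = 0.131, limma) and passed it with a replicate block (0.0476). *Tcf7l1* had 602, 539 and 736 against 612, 486 and 591 (0.15, 95% interval -0.27 to 0.56) and *Tcf7l2* had 999, 1616 and 1481 against 1263, 2233 and 1750.0 (-0.35, interval -0.82 to 0.12), and both overlapped.

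*Tcf7l1* thus lay lower in TcfsgRNA than in GFPsgRNA cells in low CHIR and at a like level in high CHIR. The difference between the dose responses was 1.03 ± 0.29 (unadjusted p = 0.00381, adjusted p = 0.360, limma), and for *Lef1* it was -2.25 ± 0.98 (unadjusted p = 0.0403, adjusted p = 0.942). For *Tcf7* and *Tcf7l2* it was -0.41 ± 0.47 and -0.20 ± 0.32. No member was called where 0.126% of genes were. Within TcfsgRNA cells *Lef1* rose from 87.1 and 21.5 counts in low to 255, 441 and 513 in high CHIR (3.12 ± 0.73, adjusted p = 0.0462, limma). It was the only member called, where 2.54% of genes were. Without TcfsgRNA replicate 3 in low CHIR (adjusted p = 0.306) or replicate 1 (0.0588), 2 (0.160) or 3 (0.144) in high CHIR that call was lost. *Tcf7l1* differed by -0.73 ± 0.21 in these cells (adjusted p = 0.106). *Tcf7* went from 66.2 and 97.7 to 110, 179.7 and 127 counts, without overlap (0.75 ± 0.35, adjusted p = 0.357), and *Tcf7l2* from 1575 and 1695 to 999, 1616 and 1481, with overlap (-0.29 ± 0.24, adjusted p = 0.656).

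The balance in TcfsgRNA cells in high CHIR was intermediate. *Tcf7l1* held 39.0% ± 7.21 (SD, n = 3) of the per-kb sum, *Tcf7l2* 37.3% ± 4.15, *Tcf7* 12.8% ± 2.57 and *Lef1* 10.9% ± 2.07. Their GFPsgRNA controls had 21.0% ± 6.29, 28.0% ± 6.46, 23.5% ± 6.34 and 27.5% ± 6.55. The log2 ratio of *Lef1* to *Tcf7l1* was -1.85 ± 0.50, below every control library in high CHIR and above every library in low CHIR of this table. Summed levels per kb were 414 ± 66.6 in TcfsgRNA against 717 ± 160 in GFPsgRNA cells in high CHIR, and 493 ± 95.5 against 774 ± 69.7 in low CHIR, without overlap at either dose. NPC markers gave sums of 10523 to 12526 and 10837 to 11915 in the high CHIR groups, but 5 of the 9 (*Cited1*, *Meox1*, *Meox2*, *Osr1* and *Six2*) passed the test as higher in TcfsgRNA cells, by 1.64 to 2.56 on the log2 scale. The part of these differences in the members' values was not tested.

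**Figure D4:**
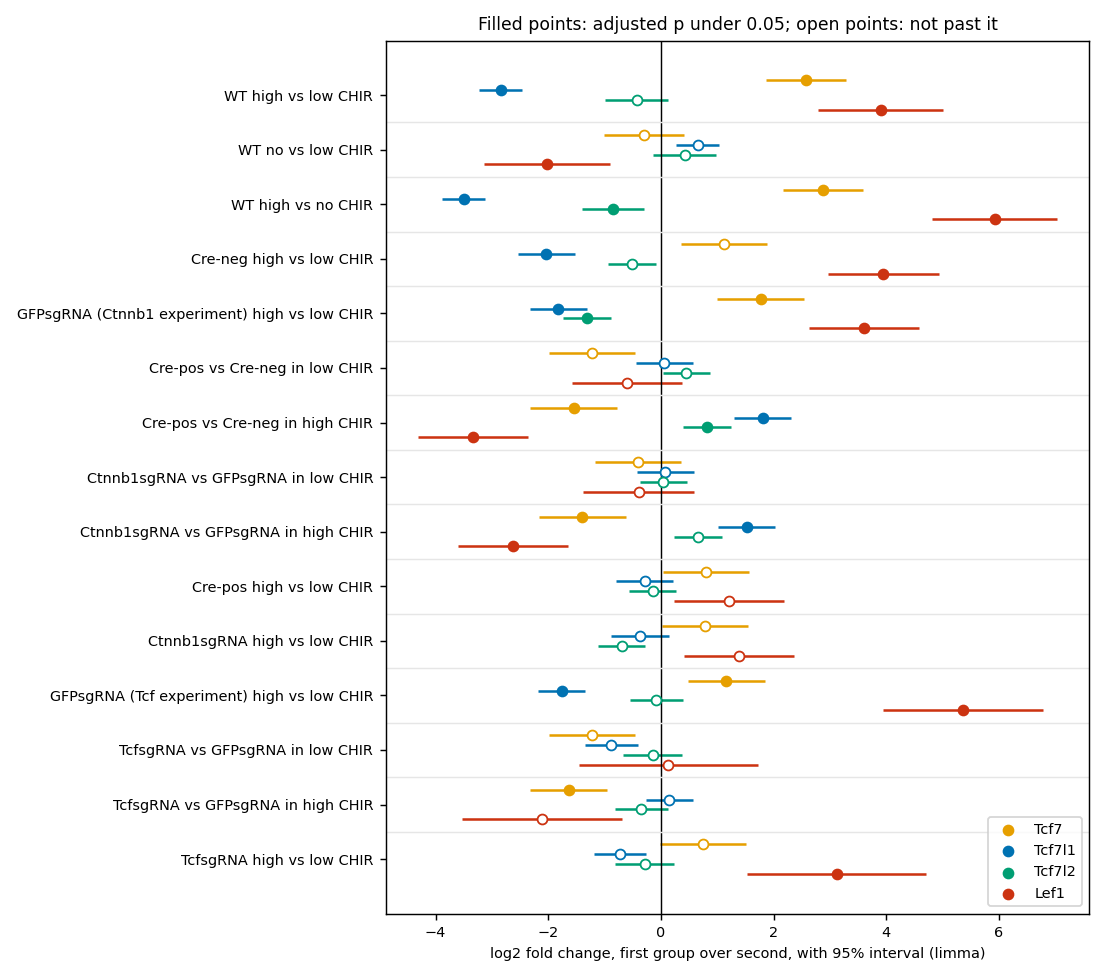
Log2 fold change (x axis) of each factor in 15 comparisons (rows), with 95% intervals from limma; filled points passed an adjusted p of 0.05 and open points did not. *Lef1* and *Tcf7* lie to the right and *Tcf7l1* to the left for high against lower CHIR in wild-type and control cells. In high CHIR the differences of β-catenin-removed from control cells have the opposite signs. For high against low CHIR within β-catenin-removed cells these genes keep the signs of the controls, with none called. In the β-catenin removal comparisons in low CHIR the intervals cross or approach 0, except that of *Tcf7* with Cre (-1.99 to -0.46), which was not called.

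Ordered by mean within the β-catenin table, *Lef1* was highest in Cre-neg high CHIR, then GFPsgRNA high CHIR, which overlapped it. A gap followed to Ctnnb1sgRNA and Cre-pos in high CHIR, which overlapped each other, and the low CHIR groups came last, with GFPsgRNA in low CHIR reaching into the ranges of both. *Tcf7l1* gave the mirror image: both control groups in high CHIR were lowest and overlapped, Ctnnb1sgRNA in high CHIR came next, clear of its neighbours by mean but holding the lower library of Cre-pos in high CHIR within its range, and the other 5 groups overlapped their neighbours. *Tcf7* had both high CHIR controls on top, each clear of its neighbour, and *Tcf7l2* had them at the bottom. In the Tcf/Lef table the order for *Lef1* was GFPsgRNA high, TcfsgRNA high, then both low CHIR groups, which overlapped. For *Tcf7* it was GFPsgRNA high, GFPsgRNA low, TcfsgRNA high and TcfsgRNA low, with an overlap between the middle pair.

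The partners of the factors were followed through a list of 40 genes: 8 coactivators, 10 corepressors, 5 modulators, 6 members of the destruction complex that degrades β-catenin, and 11 feedback targets of the pathway. From low to high CHIR in wild-type cells 6 of 40 partners were called, where 10.6% of all genes were: 5 of 11 feedback targets rose and none fell (median log2 fold change 2.56, against 0.01 over all genes). They were *Notum* (7.18 ± 1.37), *Sp5* (6.67 ± 1.04), *Axin2* (2.83 ± 0.65), *Nkd2* (2.56 ± 0.51) and *Znrf3* (1.19 ± 0.24). *Notum* encodes a secreted enzyme that inactivates Wnt, and *Sp5* a transcription factor. Both were near 0 in low CHIR, with 3.94, 0 and 2.40 counts of *Notum* and 0, 6.65 and 1.20 of *Sp5*, so their fitted values depend on the pseudocount. *Notum* had 133, 72.6 and 5140 counts and *Axin2* 538, 433 and 3638 in high CHIR, so replicate 3 was highest for both, as it was for *Lef1* and *Tcf7*. None of the 10 corepressors, 5 modulators and 6 destruction complex genes was called, and of the coactivators only *Bcl9l*, which links β-catenin to Pygo, fell (-1.15 ± 0.18). Without replicate 3 in high CHIR, a fit added after the data were seen, 8 of 40 partners were called beside 12.9% of genes, 7 higher and 1 lower. In that fit *Notum* was 5.28 and *Sp5* 5.46 higher, *Axin2* 1.86 and *Nkd2* 2.40, *Znrf3* kept its call, and *Rnf43* (1.74) and the corepressor gene *Ctbp2* (1.32) passed as well.

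From low to no CHIR 1 of 40 partners was called, where 5.04% of genes were: the transcription factor gene *Myc*, higher by 1.05 ± 0.20. Between no and high CHIR 14 of 40 were called, 11 higher and 3 lower, beside 24.6% of genes. Largest by fitted value were *Sp5*, at 0 in all 3 libraries without CHIR, *Notum* (7.70 ± 1.37), *Rnf43* (5.23 ± 0.91) and *Nkd1* (3.81 ± 1.09). Without replicate 3 in high CHIR 17 were called beside 26.3% of genes, with *Notum* at 5.80, *Rnf43* at 3.91 and *Nkd1* at 2.15.

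The controls gave a like count. Of 10 feedback targets tested (*Rnf43* was under the filter), 6 rose and 2 fell in Cre-neg cells, 6 rose and 1 fell in GFPsgRNA cells of the β-catenin experiment, and 7 rose and 0 fell in those of the Tcf/Lef experiment. Those that fell were *Dkk1*, a secreted Wnt inhibitor (-2.68 ± 0.71), and *Myc* in Cre-neg cells and the receptor gene *Lgr5* in GFPsgRNA cells (-2.58 ± 0.51). *Bcl9l* fell in all 3, by 1.07, 0.80 and 1.62 on the log2 scale. Thus 9, 9 and 10 of 39 partners were called in the 3 controls, or 23.1%, 23.1% and 25.6%, beside 8.06%, 7.51% and 15.6% of all genes.

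When β-catenin was removed in high CHIR, 9 of 39 partners were called with Cre and 6 with Cas9, of which 1 was the targeted *Ctnnb1* itself. These are 23.1% and 15.4% of the partners, beside 8.65% and 5.09% of all genes. With Cre 6 feedback targets were lower, among them *Sp5* (-4.07 ± 0.94), *Notum* (-3.21 ± 0.66) and *Nkd2* (-2.14 ± 0.46), and 2 were higher, *Dkk1* (2.50 ± 0.71) and *Myc* (1.43 ± 0.30). With Cas9 *Sp5* (-3.88 ± 0.94), *Notum* (-2.83 ± 0.66) and *Znrf3* (-1.11 ± 0.16) were lower and *Myc* was higher (1.28 ± 0.30). *Bcl9l* was higher with both, by 0.89 ± 0.21 and 1.14 ± 0.21. In low CHIR no partner was called with either, where 0.328% and 0.0536% of genes were. Between high and low CHIR none of 39 was called within Cre-pos cells, beside 0.292% of genes. Within Ctnnb1sgRNA cells 1 was, *Znrf3* (0.78 ± 0.16, adjusted p = 0.0406), beside 0.763% of genes.

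In TcfsgRNA cells 2 of 39 partners differed from GFPsgRNA cells in high CHIR and none in low CHIR, where 2.56% and 0.0063% of all genes did. *Ccnd1*, which encodes cyclin D1 and stood on the list as a pathway target, had 4051, 5856 and 5934 counts against 1225, 2219.8 and 2126, and was higher by 1.53 ± 0.32 (adjusted p = 0.0285). *Tle4*, a Groucho-type corepressor, had 297, 390 and 374 counts against 685, 794 and 556, and was lower by 0.93 ± 0.21 (adjusted p = 0.0388). Neither gene's groups overlapped. Within TcfsgRNA cells 3 partners rose from low to high CHIR, *Ccnd1* (4.77 ± 0.36) from 243 and 149 counts, *Sp5* (3.81 ± 0.87) and *Znrf3* (0.94 ± 0.14), where 2.54% of all genes were called. The destruction complex genes were called in none of the 18 comparisons.

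The genes most like each factor over all 36 libraries were found by Pearson r on log2 counts centred within each table, among 11712 genes, as a description in which the points share tables and doses. For *Lef1* they were *Sorbs2* (0.957), *Arhgef3* (0.947) and *Arl4c* (0.944). For *Tcf7l1* they were *Tcf24* (0.944), *Meox2* (0.944) and *Osr1* (0.940), of which *Meox2* and *Osr1* are on the list of NPC markers. Those of *Tcf7* were *Sbk1* (0.908), *Kif5c* (0.893) and *Gnaz* (0.886), and those of *Tcf7l2* *Has2* (0.839), *Mest* (0.814) and *Rtl5* (0.802). Among the members r was 0.822 for *Tcf7* with *Lef1*, 0.658 for *Tcf7l1* with *Tcf7l2*, -0.886 for *Tcf7l1* with *Lef1* and -0.605 for *Tcf7* with *Tcf7l2*.

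Because *Lef1* and *Tcf7l1* ran in opposite directions, the 250 bases before each annotated start in RefSeq (GRCm38.p6) were searched on both strands for CTTTGA and CTTTGT, short forms of the sequence that Tcf/Lef factors bind, and for the longer CTTTGAT. These occur in 13.8%, 16.5% and 3.21% of all 32851 such windows. No window of a member held CTTTGAT, and neither window of *Tcf7* held any of the 3. Starts of *Tcf7* forms outside this annotation were not searched. Of 4 windows of *Lef1*, 1 at an internal start held 3 matches, shown in capitals from 190 to 91 bases before that start at chr3:131156104-131156203 on the plus strand. Of 2 windows of *Tcf7l2*, 1 at an internal start held a CTTTGT, 14 bases before that start. The single window of *Tcf7l1* held 1, shown in the 100 bases before its RefSeq start at chr6:72789046-72789145 on the minus strand. These bases lie inside the GENCODE span of the gene given above, which begins further upstream. A match is only an occurrence of these letters and was not read as a binding site.
Lef1: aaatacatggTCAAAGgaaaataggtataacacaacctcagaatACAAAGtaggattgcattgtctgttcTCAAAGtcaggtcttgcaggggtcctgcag
Tcf7l1: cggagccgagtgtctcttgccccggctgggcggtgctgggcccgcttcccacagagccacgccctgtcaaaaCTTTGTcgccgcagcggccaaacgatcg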

How the data were processed

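RNA-seq of 36 libraries was analysed from 3 deposited tables (9 wild-type, 16 β-catenin and 11 Tcf/Lef libraries). Per the submitters' processing notes and the study's methods, reads of 150 bases were aligned by STAR against a joint reference of GRCm38 and GRCh38, and those that aligned uniquely were counted per gene by featureCounts. The authors divided the counts by DESeq2 size factors, so the signal in each deposited table is a normalized count. The 8 deposited comparison tables, which hold the authors' log2 fold changes and p-values, were not used, and 0 columns of per-sample values were left without a sample.

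Whole reads were recovered from the smallest step between the values of a library (100% whole within 0.05 reads). Each table was fitted separately in R 4.3.3 with limma 3.58.1 (trend, means per group, all libraries of the table) on log2(value + 1), for genes with a mean of at least 10. A gene was called at an adjusted p under 0.05 (Benjamini-Hochberg). No test was made on shares or ratios. Alternatives were edgeR 4.0.16 (quasi-likelihood) and DESeq2 1.42.0 on the recovered reads, TMM rescaling, a pseudocount of 0.5, no filter, only the groups compared, a replicate block and leaving out each library, to which the partner fit without replicate 3 in wild-type high CHIR was added after the data were seen. The fit was tested on simulated data.

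The members, the partner and marker lists and the tests were chosen with earlier results of these data known. The text names the 4 members in every comparison, *Ctnnb1*, up to 4 called partners per comparison by size of the fold change, and the 3 genes most like each member. *Znrf3*, *Bcl9l*, the partners gained without that replicate and the *Myc* values of 2 comparisons, the markers of single cell types and *Nkd1* in 1 library were named after their values were seen. Replicate numbers were taken to pair libraries in the Tcf/Lef table. There the deviations of same-numbered libraries from their group means correlated across genes at 0.531, 0.341 and 0.630 (GFPsgRNA, high and low CHIR) and 0.369, 0.249 and 0.365 (TcfsgRNA and GFPsgRNA, high CHIR). The main fits left this pairing out, and it entered only with the replicate block.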

Additional observations from a re-analysis of the deposited data

Results flagged for a closer look

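The response of *Tcf7l1* to high CHIR differed between Cre-pos and Cre-neg cells by 1.75 ± 0.33 on the log2 scale (limma, adjusted p = 0.0222), and is listed here because the difference between the 2 responses was itself tested and passed the threshold. It was -2.04 in Cre-neg and -0.29 in Cre-pos cells. The call was not firm: it was lost in 5 of 8 fits that left out 1 library. It was also lost with only the groups compared (limma, adjusted p = 0.163). Groups held 2 or 3 libraries, so no result was flagged for a single outlying library.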

How the results depend on the processing

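TMM rescaling, a pseudocount of 0.5 and no filter on low values changed 1 call between them. That call, *Tcf7l1* in no against low CHIR in wild-type cells, was past the threshold with TMM (0.67, adjusted p = 0.0479), edgeR (0.67, 0.0485), DESeq2 (0.67, 0.00468) and only the groups compared (0.66, 0.0134), and *Lef1* there was lost with edgeR (-1.74, 0.0836). *Tcf7l2* in high CHIR was lost for Cre with only the groups compared (0.81, 0.123) and gained for Cas9 with DESeq2 (0.65, 0.0371) and only the groups compared (0.66, 0.0355). *Lef1* under the Tcf/Lef guides was gained in high CHIR with only the groups compared (-2.12, 0.0104) and changed sign in low CHIR with DESeq2 (-0.019, 0.997). Among the other results, only the groups compared lost *Tcf7l2* in high against no CHIR (adjusted p = 0.0713), *Tcf7l1* in the dose difference for Cre (0.163) and *Lef1* in TcfsgRNA dose (0.0502, and 0.0806 with edgeR), and called *Tcf7l1* in the dose difference for Cas9 (0.0260). DESeq2 called that one too (0.00863), and *Tcf7* in Cre-neg dose (0.0113), *Lef1* in Ctnnb1sgRNA dose (0.0383) and the dose difference for Cre (0.000925), and *Tcf7l1* in TcfsgRNA dose (0.0199). The cause was not tested in any of these. Here dose means high against low CHIR. Only the groups compared could not be run as a separate fit for the Tcf/Lef dose difference, which uses every group already.

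In the paired Tcf/Lef table the replicate block changed no call of a member but that of *Lef1* in high CHIR (-2.12, adjusted p = 0.0476). In the other tables pairing was not taken from the numbers. The wild-type correlations for high and low CHIR were 0.147, 0.0393 and 0.0946. The β-catenin table has 2 pairs per comparison (0.142 to 0.518), and some of these are as high as values taken as pairing in the Tcf/Lef table. Whether its libraries are paired was not settled. In these other tables the replicate block gave *Lef1* in no against low CHIR -2.02 (adjusted p = 0.0603) and *Tcf7l2* under Ctnnb1sgRNA in high CHIR 0.66 (0.0318), and it called 6 further results: *Tcf7* in Cre-neg dose (adjusted p = 0.0223) and Cre in low CHIR (0.0464), *Lef1* in Ctnnb1sgRNA dose (0.0110) and in the dose differences for Cre (0.000826) and Cas9 (0.00654), and *Tcf7l1* in that for Cas9 (0.0334).

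Leaving out 1 library gave ranges of -2.62 to -1.62 for *Lef1* in no against low CHIR, -1.66 to -1.45 for *Tcf7* and 0.58 to 1.05 for *Tcf7l2* under Cre in high CHIR, -1.60 to -1.19 for *Tcf7* and -3.23 to -2.01 for *Lef1* under Ctnnb1sgRNA in high CHIR, and -1.97 to -1.47 for *Tcf7* under TcfsgRNA in high CHIR, each losing its call in some fits. Values not called changed sign for *Lef1* under TcfsgRNA in low CHIR (-0.85 to 1.12), *Tcf7l1* under Cre (-0.27 to 0.39) and, under Ctnnb1sgRNA in low CHIR, *Tcf7l1* (-0.072 to 0.23), *Tcf7l2* (-0.078 to 0.16) and *Lef1* (-0.83 to 0.029). The same held for *Tcf7l2* in Cre-pos dose (-0.38 to 0.088) and GFPsgRNA dose of the Tcf/Lef experiment (-0.28 to 0.13), and for the dose differences of *Tcf7* with Cre (-0.98 to 0.32) and *Tcf7l2* with TcfsgRNA (-0.42 to 0.0084). Where 1 library of a group of 2 is left out, the lone library is assumed to vary like the other groups. Shares moved by more than 1 SD in 50 of 60 group means with the longest transcript as length and in 53 of 60 with the coding sequence. With 2 or 3 libraries a group and as few as 22 reads on *Lef1*, changes of low values in low CHIR are weakly bounded.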
